A study of Homo sapiens with 24 samples.

Results

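Aldehyde dehydrogenases oxidise aldehydes to carboxylic acids with NAD or NADP, and in liver cells they clear the aldehydes that arise from ethanol, from lipid peroxidation and from the breakdown of amino acids. The present account follows 9 genes of this family, ALDH1A1, ALDH2, ALDH3A1, ALDH3A2, ALDH7A1, ALDH9A1, ALDH1B1, ALDH6A1 and ALDH4A1, chosen by symbol and matched to the count table by Entrez gene ID. All 9 genes were in the table, which holds 11927 gene features, and all 9 passed the filter on low counts that left 11152 genes for testing. The cells were HepG2, a line established from a human liver cancer, which had been transduced with lentiCRISPRv2 (Cas9 and a guide RNA) and selected with puromycin. The guide was sgCtrl, directed at the AAVS1 safe-harbour site, or sgKeap1-1 or sgKeap1-2, both directed at KEAP1. Each population was transfected with a non-targeting siRNA pool (siNC) or with pools that target both TFEB and TFE3 (sitfeb/sitfe3), and RNA was taken 72 h later. The 6 guide-by-siRNA groups held 4 libraries each. The cells were selected populations that were not described as clones, so edited and unedited cells could be mixed in a group, and no untransduced or untransfected cells were included.

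KEAP1 is the adaptor that hands the transcription factor NRF2 to a ubiquitin ligase, so that NRF2 is degraded until oxidative or electrophilic stress modifies KEAP1. NRF2 then binds antioxidant response elements and raises genes of glutathione synthesis, NADPH supply and the removal of reactive carbonyls, among which several aldehyde dehydrogenases are commonly listed. TFEB and TFE3 are MiT/TFE transcription factors that drive lysosomal genes through E-box motifs. The design asks which aldehyde dehydrogenases differ between cells with a KEAP1 guide and control cells, and whether they depend on TFEB and TFE3.

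Libraries held between 3527000 and 4600951 reads in all. KEAP1 RNA fell with sgKeap1-1 (log2 fold change -0.66 under siNC and -0.61 under sitfeb/sitfe3) and was measured at -0.14 and -0.13 with sgKeap1-2, where the test was not passed. TFE3 RNA fell by 1.57, 1.74 and 1.69 on the log2 scale with knockdown in the sgCtrl, sgKeap1-1 and sgKeap1-2 backgrounds. TFEB RNA fell by 2.15 and 1.67 in the sgKeap1-1 and sgKeap1-2 backgrounds and was at -1.96 in sgCtrl, where the limma adjusted p of 0.0858 did not pass. With the replicate number as a block it was at -2.01 there and passed (adjusted p 0.0157). Of 20 reference NRF2 targets, 18 were tested, and between 14 and 17 of them rose in each of the 4 comparisons with a KEAP1 guide. Among all genes tested, 6.01% and 7.58% rose with sgKeap1-1 and sgKeap1-2 under siNC, and 5.69% and 10.6% under sitfeb/sitfe3. All 10 hepatocyte markers were present, with a summed level of 24776 to 35843 CPM (a gene's reads scaled to a common library size) in the 8 sgCtrl libraries and 14565 to 21686 CPM in the 16 libraries with a KEAP1 guide. Under siNC the mean of ALB went from 10885 CPM with sgCtrl to 4449 and 4661 CPM with sgKeap1-1 and sgKeap1-2. AFP went from 7331 to 2178 and 1783 CPM, and APOA1, APOB, APOH, FGB and HNF4A were also lower with both guides. In the same order TTR was at 721, 694 and 647 CPM, GPC3 at 1545, 1422 and 1690 CPM and SERPINA1 at 36.0, 33.0 and 38.1 CPM. Of 11 markers of other cell types only KRT19, PDGFRB and CD68 were in the table. Their sum was 254 to 393 CPM with sgCtrl and 505 to 996 CPM with a KEAP1 guide, nearly all of it KRT19, while the defining markers PTPRC, PECAM1 and COL1A2 were not in the table. The part of these marker shifts in the results that follow was not tested. In bulk RNA, fewer cells of a type and less RNA per cell cannot be told apart. A pair of libraries stood apart on the second principal component, namely replicate 1 of siNC; sgKeap1-1 together with replicate 1 of sitfeb/sitfe3; sgKeap1-2, and results are given without them where that matters.

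ALDH1A1 and ALDH3A1 rose with both KEAP1 guides under both siRNAs, and ALDH6A1 fell in 3 of the 4 comparisons. ALDH1A1 is the cytosolic enzyme that turns retinaldehyde into retinoic acid, ALDH3A1 is a cytosolic enzyme for aromatic and lipid-derived aldehydes that is abundant in the cornea, and ALDH6A1 is the mitochondrial methylmalonate semialdehyde dehydrogenase of valine and thymine breakdown. Under siNC, 3 of the 9 genes passed with sgKeap1-1, beside 10.9% of all genes tested, and 2 of the 9 with sgKeap1-2, beside 14.7%. Under sitfeb/sitfe3, 3 of the 9 passed with each guide, beside 10.5% for sgKeap1-1 and 20.2% for sgKeap1-2. By direction, 2 genes rose in each comparison, beside 6.01% and 7.58% of all genes under siNC and 5.69% and 10.6% under sitfeb/sitfe3. The number that fell was 1 with sgKeap1-1 and 0 with sgKeap1-2 under siNC, beside 4.91% and 7.14%, and 1 with each guide under sitfeb/sitfe3, beside 4.81% and 9.59%. Over all 4 comparisons ALDH1A1 and ALDH3A1 rose in each, as did 3.86% of all genes. The same 8 sgCtrl libraries, 4 per siRNA, served as the control for both guides, so the comparisons of the 2 guides are not independent.

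ALDH1A1 was measured at 163, 145, 133 and 132 CPM in the 4 siNC; sgCtrl libraries. It stood at 351, 415, 427 and 433 CPM with sgKeap1-1 and at 635, 440, 493 and 499 CPM with sgKeap1-2. The lowest library with a KEAP1 guide was thus above every sgCtrl library, as it was for 7.67% of genes with sgKeap1-1 and 11% with sgKeap1-2. Under sitfeb/sitfe3 the levels were 201, 137, 122 and 158 CPM with sgCtrl. They were 521, 411, 499 and 400 CPM with sgKeap1-1 and 610, 411, 468 and 503 CPM with sgKeap1-2, and again no library overlapped, as for 9.06% and 10.6% of all genes. Taking all libraries together, ALDH1A1 was higher in the 16 libraries with a KEAP1 guide than in all 8 others, as were 2.8% of genes. The log2 fold changes were 1.50 (95% interval 1.21 to 1.80, limma adjusted p 4.54e-08) and 1.84 (1.55 to 2.14, adjusted p 7.61e-10) under siNC. Under sitfeb/sitfe3 they were 1.58 (1.29 to 1.88, adjusted p 2.18e-08) and 1.70 (1.41 to 1.99, adjusted p 2.33e-09).

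ALDH3A1 was close to the detection limit without a KEAP1 guide. The 4 siNC; sgCtrl libraries held 6, 6, 3 and 0 reads of it, and the 4 sitfeb/sitfe3; sgCtrl libraries held 2, 2, 1 and 6 reads. With sgKeap1-1 there were 47, 63, 63 and 47 reads under siNC and 33, 51, 42 and 62 under sitfeb/sitfe3. With sgKeap1-2 there were 37, 54, 77 and 56 reads under siNC and 28, 58, 65 and 50 under sitfeb/sitfe3. No library with a KEAP1 guide overlapped an sgCtrl library, and all 16 were higher than all 8, as were 2.8% of all genes. The log2 fold changes were 4.26 and 4.25 under siNC and 4.09 and 4.19 under sitfeb/sitfe3 (limma adjusted p between 9.57e-06 and 3.47e-05), and their size depends on the prior count because the control counts are so low. The siNC values also rested on siNC; sgCtrl replicate 4, the library with 0 reads: without it they were 3.32 with sgKeap1-1 and 3.31 with sgKeap1-2, and both still passed. The ratio of pooled reads, which has no prior, was 14.7-fold with sgKeap1-1 (95% exact counting interval 8.69 to 26.6) and 14.6-fold with sgKeap1-2 (8.66 to 26.5) under siNC. It was 17.3-fold (9.43 to 35.2) and 18.6-fold (10.2 to 37.8) under sitfeb/sitfe3, with intervals that cover counting error only. ALDH3A1 lies on chromosome 17 at 19641297 to 19652256 of GRCh37, its exons overlap a long non-coding RNA on the opposite strand, and the strand setting of the counting is not given in the sources used here.

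ALDH6A1 moved the other way. It was measured at 98.0, 83.8, 108 and 94.8 CPM in siNC; sgCtrl, at 38.6, 71.4, 56.3 and 69.4 CPM with sgKeap1-1 and at 66.1, 67.0, 87.4 and 76.2 CPM with sgKeap1-2. All 4 sgKeap1-1 libraries were below every control library, as were 6.47% of all genes, while the highest sgKeap1-2 library overlapped the lowest control. Under sitfeb/sitfe3 the levels were 88.7, 96.3, 90.1 and 87.2 CPM with sgCtrl, 58.3, 63.3, 58.6 and 52.7 CPM with sgKeap1-1 and 61.6, 57.1, 71.6 and 62.1 CPM with sgKeap1-2, with no overlap, as for 8.11% and 9.24% of all genes that were lower. The log2 fold change with sgKeap1-1 was -0.74 (95% interval -1.03 to -0.45, limma adjusted p 0.00065) under siNC and -0.64 (-0.93 to -0.35, adjusted p 0.00273) under sitfeb/sitfe3. With sgKeap1-2 it was -0.52 (-0.81 to -0.24, adjusted p 0.00781) under sitfeb/sitfe3 and -0.37 (-0.65 to -0.09) under siNC, where the adjusted p of 0.0716 did not pass. That last value passed without the 2 libraries that stood apart, at -0.36 (adjusted p 0.0127), and without siNC; sgKeap1-2 replicate 3, at -0.45 (adjusted p 0.0495). Without the 2 libraries that stood apart, the sgKeap1-1 value under siNC was smaller, at -0.54, and still passed (limma adjusted p 0.0014). The exons of ALDH6A1 overlap those of BBOF1 on the opposite strand, so reads of the 2 genes could be mixed if strand was not used in the counting.

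**Figure D1:**
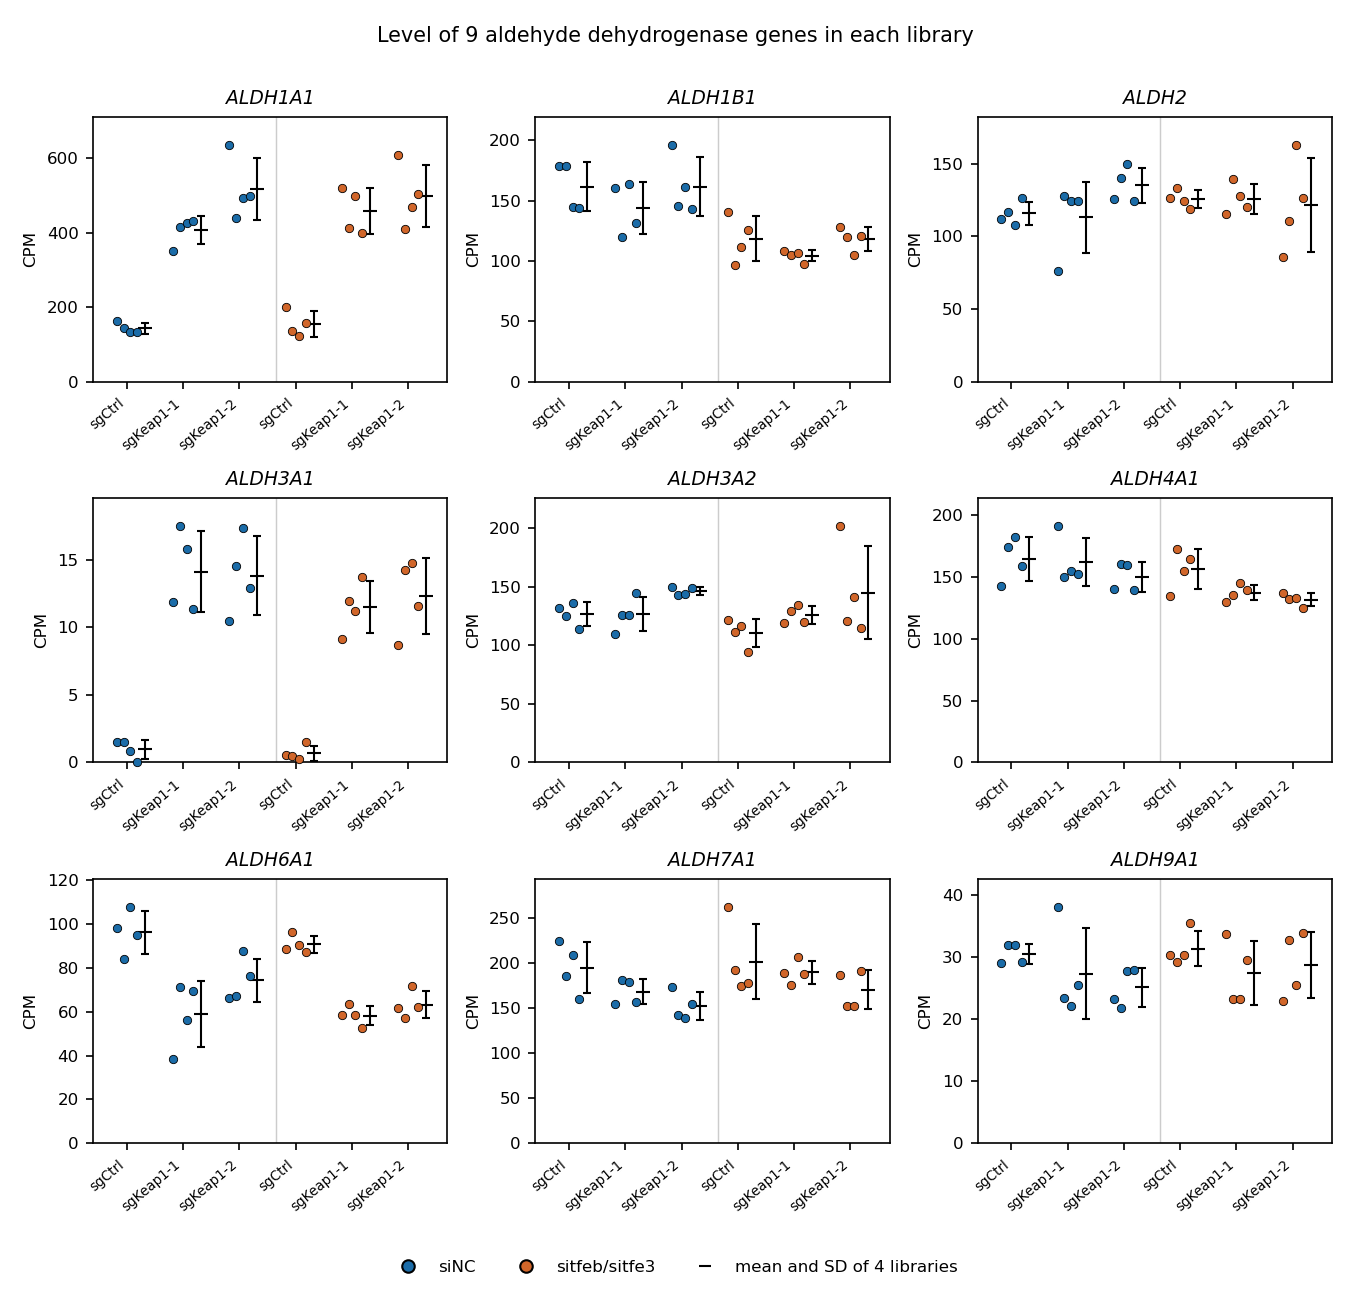
Level (CPM, linear axis from 0) of the 9 genes in each of 24 libraries, by guide and siRNA, with the mean and SD of the 4 libraries of each group. ALDH1A1 and ALDH3A1 are higher in all 16 libraries with a KEAP1 guide than in all 8 sgCtrl libraries, as are 2.8% of all genes. ALDH6A1 is below the lowest sgCtrl library in 15 of 16, and 1.62% of all genes are below it in all 16.

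The remaining 6 genes passed the test in none of the 4 comparisons by limma. ALDH2, the mitochondrial enzyme that oxidises the acetaldehyde made from ethanol, had log2 fold changes of -0.06 and 0.22 under siNC and of -0.00 and -0.08 under sitfeb/sitfe3 with sgKeap1-1 and sgKeap1-2, and its 95% intervals spanned -0.39 to 0.53 in all. ALDH1B1, a mitochondrial relative that also takes acetaldehyde, had values from -0.17 to 0.01 with intervals within -0.44 and 0.27. ALDH9A1, which makes the carnitine precursor trimethylaminobutyrate, had values from -0.27 to -0.13 in the 4 comparisons. The interval that reached furthest for ALDH9A1 ran from -0.61 to 0.07, and 11 of its 16 KEAP1-guide libraries were below the lowest sgCtrl library at 29.0 CPM. Under siNC its 4 sgKeap1-2 libraries, at 21.8 to 27.8 CPM, were all below the 4 sgCtrl libraries, at 29.0 to 31.9 CPM, as were 9.28% of all genes. In the same comparison the 4 sgKeap1-2 libraries were all higher for ALDH3A2, at 143 to 150 CPM against 114 to 137. So were 11% of all genes, and the ALDH3A2 log2 fold change there was 0.21 (limma adjusted p 0.314).

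ALDH7A1, ALDH3A2 and ALDH4A1 lay near the threshold in a single comparison each, all with sgKeap1-2. ALDH7A1, the aminoadipic semialdehyde dehydrogenase of lysine breakdown, was measured at 224, 186, 209 and 160 CPM in siNC; sgCtrl and at 173, 143, 139 and 154 CPM in siNC; sgKeap1-2, and a single library of the latter lay within the control range. Its log2 fold change there was -0.35 (95% interval -0.61 to -0.09, limma adjusted p 0.0635). It passed when siNC; sgCtrl replicate 4 (adjusted p 0.0252) or siNC; sgKeap1-2 replicate 1 (adjusted p 0.0418) was left out and without the 2 libraries that stood apart (adjusted p 0.0386). With the replicate number as a block it was at -0.35 and passed (adjusted p 0.0399). ALDH7A1 also passed there by DESeq2 (adjusted p 0.0474). By limma it passed with quality weights (adjusted p 0.0163), with only the compared groups' libraries (0.0428) and without the 6 libraries numbered 1 (0.0287). ALDH3A2, the fatty aldehyde dehydrogenase of the endoplasmic reticulum, was at 122, 111, 117 and 94.1 CPM in sitfeb/sitfe3; sgCtrl and at 202, 121, 142 and 115 CPM in sitfeb/sitfe3; sgKeap1-2. The value of 202 CPM came from replicate 1, a library that stood apart, and the groups overlapped. The log2 fold change was 0.35 (0.08 to 0.61, adjusted p 0.0590), and 0.18 without the 2 libraries that stood apart (adjusted p 0.178), but it passed without replicate 2 (0.0321) or replicate 4 (0.0222) of that group. With the replicate number as a block ALDH3A2 was at 0.35 and passed (adjusted p 0.0482). It also passed there by edgeR's quasi-likelihood test (0.38, adjusted p 0.0394) and by DESeq2 (0.38, adjusted p 0.0294). ALDH4A1, the mitochondrial enzyme of proline breakdown, had a log2 fold change of -0.24 (-0.45 to -0.04, adjusted p 0.0909) in the same comparison, which passed without sitfeb/sitfe3; sgCtrl replicate 1 (-0.31, adjusted p 0.0377) and without the 2 libraries that stood apart (-0.26, adjusted p 0.0444). By limma it also passed with quality weights (-0.29, adjusted p 0.0175) and without the 6 libraries numbered 1 (-0.34, adjusted p 0.00489).

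**Figure D2:**
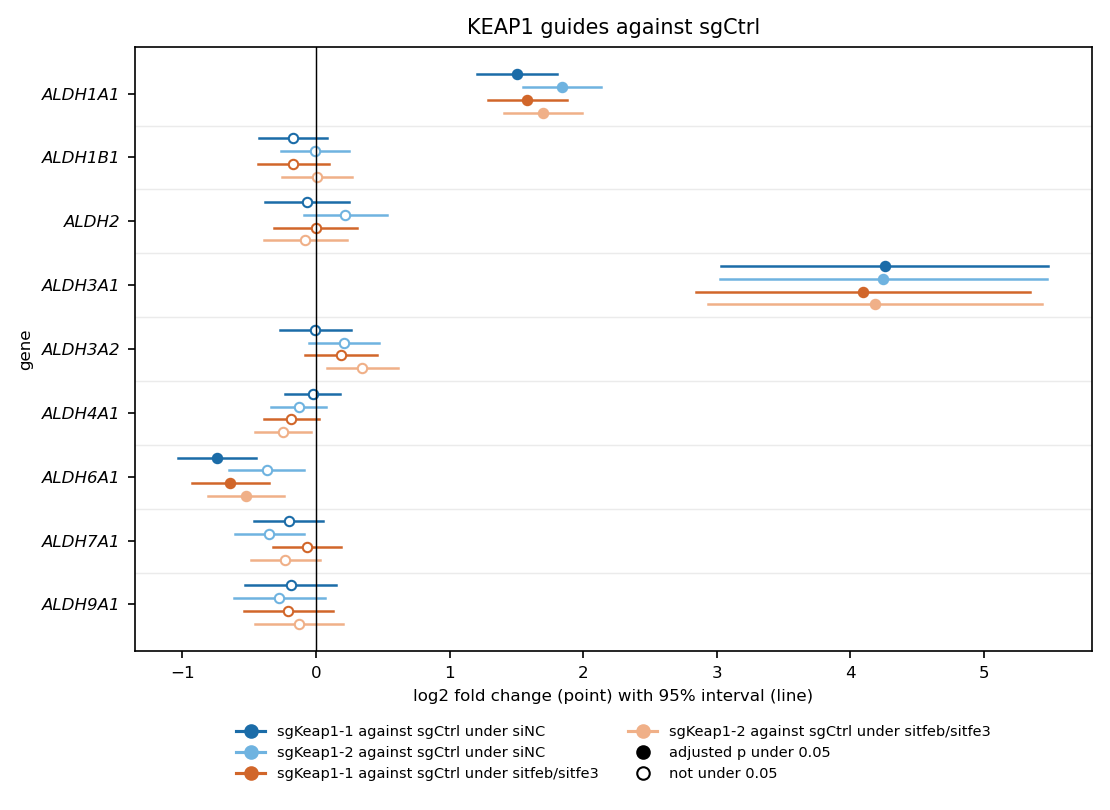
Log2 fold change (point) and 95% interval (line) of each gene for the 4 comparisons of a KEAP1 guide with sgCtrl, with filled points where the limma adjusted p was under 0.05. ALDH3A1 lies near 4, ALDH1A1 between 1.50 and 1.84 and ALDH6A1 between -0.74 and -0.37. The other 6 genes lie nearer to 0 with open points. Of these, ALDH7A1, ALDH3A2 and ALDH4A1 each have an interval that excludes 0 in a single comparison with sgKeap1-2.

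The median log2 fold change of the 9 genes was -0.06, -0.01, -0.07 and -0.08 in the 4 comparisons, beside -0.02, 0.00, 0.00 and 0.01 over all genes tested, so the family as a whole was centred near 0 while single members moved. As a share of the reads in named genes, the 9 genes together took 0.103% ± 0.00703 (SD, n = 4) in siNC; sgCtrl, 0.122% ± 0.00797 in siNC; sgKeap1-1 and 0.138% ± 0.0119 in siNC; sgKeap1-2. Under sitfeb/sitfe3 the shares were 0.0998% ± 0.0104, 0.125% ± 0.00794 and 0.127% ± 0.00835 (SD, n = 4 each). Without ALDH1A1 the other 8 genes took 0.0886% ± 0.00574 in siNC; sgCtrl, 0.0811% ± 0.0038 in siNC; sgKeap1-1 and 0.0858% ± 0.0037 in siNC; sgKeap1-2, so the sum of the others was no higher with a KEAP1 guide. ALDH1A1 alone went from 13.8% ± 0.984 of the family's reads in siNC; sgCtrl to 33.3% ± 1.56 with sgKeap1-1 and 37.4% ± 3.18 with sgKeap1-2. These are shares of 3′ reads and were not tested.

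**Figure D3:**
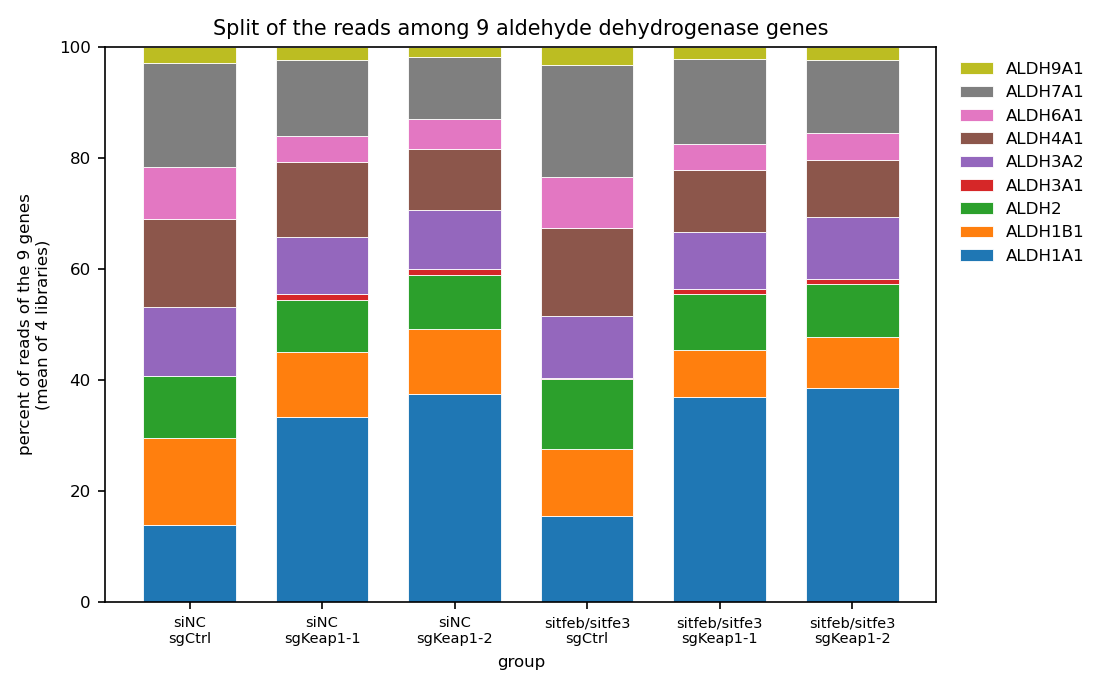
Percent of the reads of the 9 genes that falls to each gene, as the mean of 4 libraries per group. The ALDH1A1 segment grows from 13.8% in siNC; sgCtrl to 37.4% in siNC; sgKeap1-2, and from 15.5% to 38.5% between the same guides under sitfeb/sitfe3.

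ALDH3A1 and ALDH3A2 are neighbours on chromosome 17, separated by 52223 bases of GRCh37, and they differed in response. Within libraries, the log2 ratio of ALDH3A1 to ALDH3A2 was -6.62 ± 0.86 in siNC; sgCtrl, -3.14 ± 0.35 in siNC; sgKeap1-1 and -3.38 ± 0.33 in siNC; sgKeap1-2 (SD, n = 4 each). The highest ratio in an sgCtrl library under siNC was -5.97 and the lowest with a KEAP1 guide was -3.78, so these groups did not overlap. The log2 ratio of ALDH1A1 to ALDH1B1, both of the ALDH1 group, went from -0.17 ± 0.09 in siNC; sgCtrl to 1.50 ± 0.31 in siNC; sgKeap1-1 and 1.68 ± 0.09 in siNC; sgKeap1-2.

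Sequence upstream of the start site is shown for ALDH1A1 and ALDH6A1, which passed with a KEAP1 guide, for ALDH1B1, which passed in the averaged knockdown, and for ALDH3A2, which passed in no comparison of the main limma fit but holds an E-box. The RefSeq promoter table (GRCh38.p14) matched 7 of the 9 genes, with 9 windows of 300 bases, from 250 before to 50 after each start; ALDH2 and ALDH3A1 were not matched. The windows were searched on both strands for TGACNNNGC, the core of the antioxidant response element, and for CACGTG, the E-box bound by TFEB and TFE3, each motif counted on its own whether or not matches overlap. TGACNNNGC was in 0 of the 9 windows, beside 13.3% of the 35116 windows in the table. CACGTG was in 1 of the 9 windows, that of ALDH3A2, beside 7.26% of all windows. CCAAT, added after the letters were seen, was in 5 of the 9 windows, beside 34.6% of all windows. Capitals mark CCAAT or its reverse complement ATTGG in the 250 bases upstream of ALDH1A1 (chr9:72953054-72953303, minus strand), ALDH6A1 (chr14:74084454-74084703, minus strand) and ALDH1B1 (chr9:38392452-38392701, plus strand), and the E-box in 30 bases of ALDH3A2 (chr17:19648692-19648721, plus strand), all of GRCh38.p14, 5′ to 3′:
ALDH1A1: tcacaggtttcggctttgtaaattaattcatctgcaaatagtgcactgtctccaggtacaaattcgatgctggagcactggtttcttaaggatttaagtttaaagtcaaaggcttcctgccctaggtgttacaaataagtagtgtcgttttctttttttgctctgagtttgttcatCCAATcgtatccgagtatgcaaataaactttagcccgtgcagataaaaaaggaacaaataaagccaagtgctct
ALDH6A1: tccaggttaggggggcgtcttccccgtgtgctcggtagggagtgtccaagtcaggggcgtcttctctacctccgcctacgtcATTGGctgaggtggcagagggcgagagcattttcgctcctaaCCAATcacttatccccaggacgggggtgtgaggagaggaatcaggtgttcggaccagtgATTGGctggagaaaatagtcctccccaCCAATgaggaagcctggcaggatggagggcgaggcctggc
ALDH1B1: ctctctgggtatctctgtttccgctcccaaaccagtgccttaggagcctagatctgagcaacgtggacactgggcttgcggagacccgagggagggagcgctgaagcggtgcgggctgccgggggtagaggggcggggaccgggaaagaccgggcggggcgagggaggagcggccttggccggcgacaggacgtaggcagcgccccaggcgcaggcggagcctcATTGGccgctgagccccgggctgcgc
ALDH3A2: aacagcggctgtCACGTGggccgcccaggc

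The ALDH6A1 stretch holds 4 of these CCAAT letters, 2 on each strand, where 0.874% of all windows hold at least 4 in their 250 upstream bases, and ALDH1A1 and ALDH1B1 hold 1 each. The E-box of ALDH3A2 begins 47 bases before the start. ALDH1A1, which rose, holds no TGACNNNGC in its window, and ALDH3A2, which holds the E-box, did not pass the test on knockdown of TFEB and TFE3 (limma adjusted p 0.699 averaged over the guides). A match or its absence says only which letters are in the window.

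No difference between the KEAP1-guide effects under the 2 siRNAs passed the test. The interaction is the effect of a KEAP1 guide under sitfeb/sitfe3 minus its effect under siNC. It passed for 0 of the 9 genes with either guide or averaged over both, beside 0% of all genes tested (limma). For sgKeap1-1, sgKeap1-2 and their average, 0 of the 9 had an unadjusted p under 0.05, beside 304, 454 and 349 of 11152 genes. Averaged over both guides the interaction was -0.03 for ALDH1A1 (95% interval -0.40 to 0.33), -0.11 for ALDH3A1 (-1.83 to 1.6) and -0.03 for ALDH6A1 (-0.37 to 0.32). The width for ALDH3A1 leaves room for a change of more than 1 on the log2 scale in either direction.

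Knockdown against siNC, within each background, gave 0 called genes among the 9, beside 0.0179% of all genes in sgCtrl, 0.0897% in sgKeap1-1 and 0.359% in sgKeap1-2 (limma). Of all genes, 0% rose and 0.0179% fell in sgCtrl, 0.0179% rose and 0.0717% fell in sgKeap1-1, and 0.0986% rose and 0.26% fell in sgKeap1-2. By edgeR and DESeq2 0 of the 9 were called as well. At an unadjusted p under 0.05 there were 1, 2 and 1 of the 9 genes, beside 516, 901 and 1169 of the 11152 genes tested. ALDH1B1 was the gene below that level in all 3 backgrounds. It was measured at 179, 179, 145 and 144 CPM in siNC; sgCtrl and at 140, 96.6, 111 and 126 CPM in sitfeb/sitfe3; sgCtrl. With sgKeap1-1 it went from 161, 120, 164 and 131 CPM to 109, 105, 106 and 97.6 CPM. With sgKeap1-2 it went from 196, 145, 161 and 143 CPM to 128, 120, 104 and 120 CPM. In each background every knockdown library was below every siNC library, as it was for 1.75%, 2.87% and 3.19% of all genes. ALDH4A1 was also without overlap in the sgKeap1-1 background, at 130 to 145 CPM against 150 to 191, and in the sgKeap1-2 background, at 125 to 137 CPM against 139 to 161, but not in sgCtrl. The ALDH1B1 log2 fold changes were -0.46, -0.45 and -0.44 with limma adjusted p of 0.497, 0.228 and 0.155.

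A comparison added after these values were seen averaged the knockdown over the 3 guides, with all 24 libraries. ALDH1B1 then fell by 0.45 on the log2 scale (95% interval -0.60 to -0.30, limma adjusted p 0.000631), 1 of the 9 genes called, beside 2.33% of all genes, of which 0.942% rose and 1.39% fell. Because the comparison was chosen with the ALDH1B1 values known, its p is not an independent test. It passed in all 33 alternatives, with log2 fold changes from -0.48 to -0.42 and adjusted p from 1.24e-06 to 0.00227. ALDH4A1 was next, at -0.16 (-0.28 to -0.04), with an unadjusted p of 0.00966 and an adjusted p of 0.170 that did not pass. In the same comparison ALDH1A1 was at 0.07 (-0.10 to 0.23), ALDH3A1 at -0.17 (-0.78 to 0.43) and ALDH6A1 at -0.10 (-0.26 to 0.07).

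**Figure D4:**
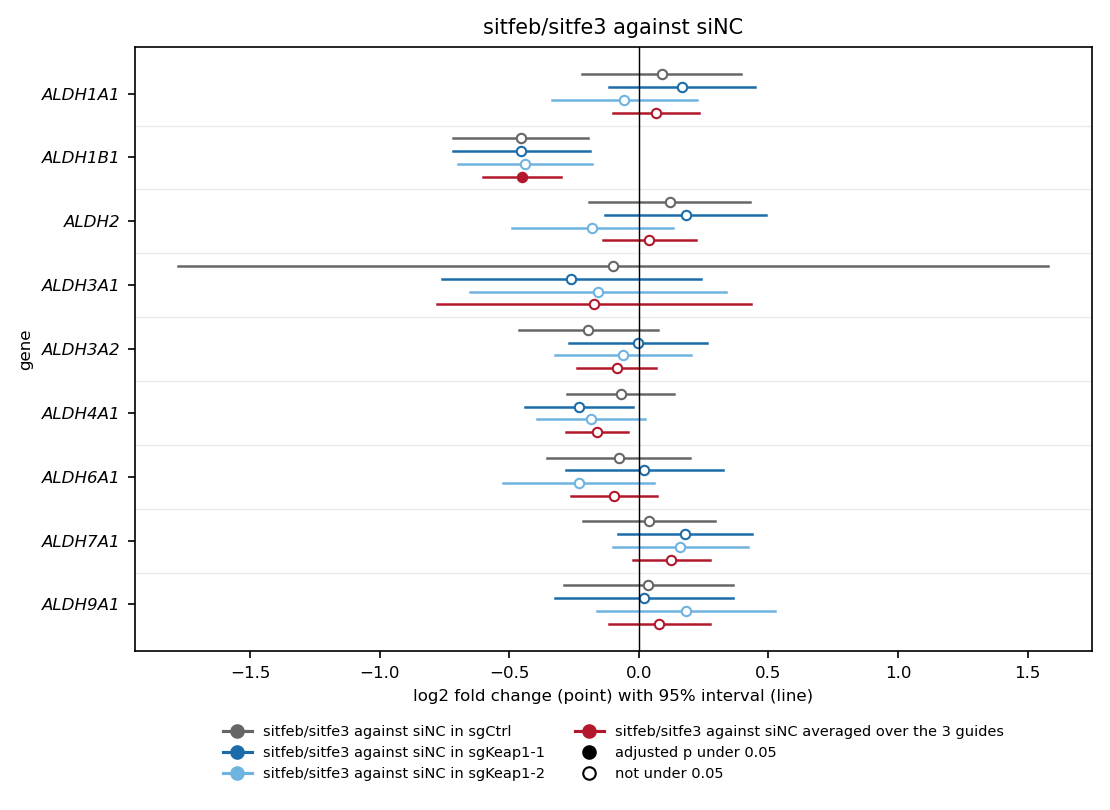
Log2 fold change (point) and 95% interval (line) of each gene for sitfeb/sitfe3 against siNC in the 3 backgrounds and averaged over them, with filled points where the limma adjusted p was under 0.05. ALDH1B1 lies between -0.46 and -0.44 in every background, and its average is the only filled point.

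The 2 KEAP1 guides were compared with each other directly. No gene of the 9 passed under siNC, beside 0% of all genes, or under sitfeb/sitfe3, beside 0.00897%, and none passed when both siRNAs were averaged, beside 0.117% (limma), with 0.0448% of all genes higher and 0.0717% lower. By edgeR's quasi-likelihood test 0 of the 9 passed too. At an unadjusted p under 0.05 there were 2, 0 and 3 of the 9 genes, beside 598, 856 and 951 of the 11152 genes tested. ALDH1A1 was higher with sgKeap1-2 in every library under siNC, the only gene of the 9 without overlap there, beside 1.5% of all genes, at 0.34 (95% interval 0.06 to 0.62, adjusted p 0.815). ALDH6A1 was at 0.37 (0.07 to 0.67, adjusted p 0.815), with libraries that overlapped.

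By the order of the 6 group means, ALDH1A1 ran from 143 CPM in siNC; sgCtrl through 155 CPM in sitfeb/sitfe3; sgCtrl to 406, 458, 498 and 517 CPM in the KEAP1-guide groups, and the sole gap without overlap lay between 155 and 406 CPM. ALDH3A1 had its sole gap at the same place, between 0.970 CPM in siNC; sgCtrl and 11.5 CPM in sitfeb/sitfe3; sgKeap1-1. For the other 7 genes, neighbouring groups in the order overlapped throughout, at spans of the group means from 0.28 for ALDH2 to 0.73 for ALDH6A1 on the log2 CPM scale.

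The genes whose 6 group means were most like those of ALDH1A1 among 10537 genes were SLC6A6, the taurine transporter, CLDN11/SLC7A14-AS1, which share their counts, and BICDL1. Their root mean square differences from ALDH1A1, each gene centred on its own mean log2 CPM, were 0.0758, 0.0861 and 0.0988. SLC6A6 went from 17.6 CPM in siNC; sgCtrl to 56.4 and 67.4 CPM with the KEAP1 guides. ALDH3A1 was most like GSTA2, a glutathione S-transferase, at 0.0383, then CDA, a cytidine deaminase, at 0.131, and LUCAT1, a long non-coding RNA, at 0.149. GSTA2 went from 4.38 CPM in siNC; sgCtrl to 52.2 and 52.8 CPM. The likeness was taken over 6 groups that share 8 control libraries and is a description.

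Of 10 other genes of the family, 6 were in the table, and among these ALDH1L1 rose most evenly. ALDH1L1, the cytosolic formyltetrahydrofolate dehydrogenase, was at 14.4 to 22.4 CPM in siNC; sgCtrl and at 50.3 to 66.8 CPM with sgKeap1-1 and 66.0 to 77.8 CPM with sgKeap1-2. Its log2 fold changes were 1.76 and 2.08 under siNC and 1.51 and 2.04 under sitfeb/sitfe3, all with a limma adjusted p of at most 8.72e-06. ALDH18A1, which makes the proline precursor pyrroline carboxylate from glutamate, fell by 0.80 and 0.59 under siNC and by 0.79 with sgKeap1-2 under sitfeb/sitfe3. With sgKeap1-1 under sitfeb/sitfe3 it was at -0.46 (adjusted p 0.0922). All 16 KEAP1-guide libraries (55.4 to 132 CPM) were below all 8 sgCtrl libraries (146 to 184 CPM), as for 1.62% of genes. The sgKeap1-1 value under siNC did not pass with only the compared groups' libraries (adjusted p 0.0523). The siNC; sgKeap1-2 value, with an adjusted p of 0.0194, did not pass without siNC; sgCtrl replicate 2 (0.0521) or 3 (0.0522) or without siNC; sgKeap1-2 replicate 2 (0.07) or 3 (0.0547). Without the 2 libraries that stood apart, the sgKeap1-1 value under sitfeb/sitfe3 passed (adjusted p 0.000183).

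ALDH1L2, the mitochondrial form of ALDH1L1, rose with sgKeap1-2 under sitfeb/sitfe3 (log2 fold change 2.38, adjusted p 0.00454), on 10 to 27 reads a library against 1 to 5 in the control. ALDH5A1, the succinic semialdehyde dehydrogenase of GABA breakdown, fell in that comparison by 0.38 (adjusted p 0.0114). ALDH3B1 and ALDH16A1 passed in none of the 4 comparisons. Of the 6 genes, 1 rose and 1 fell with each guide under siNC. Under sitfeb/sitfe3, 1 rose and 0 fell with sgKeap1-1, and 2 rose and 2 fell with sgKeap1-2. Of all genes in the same order of comparisons, 6.01%, 7.58%, 5.69% and 10.6% rose and 4.91%, 7.14%, 4.81% and 9.59% fell. On knockdown averaged over the guides, ALDH1L1 was at -0.41 (95% interval -0.62 to -0.19, adjusted p 0.0314), a call that held in 21 of 33 alternatives and was lost, for example, without siNC; sgCtrl replicate 2 (adjusted p 0.0882). ALDH1L1 was the 1 gene of the 6 called there, beside 2.33% of all genes.

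**Figure D5:**
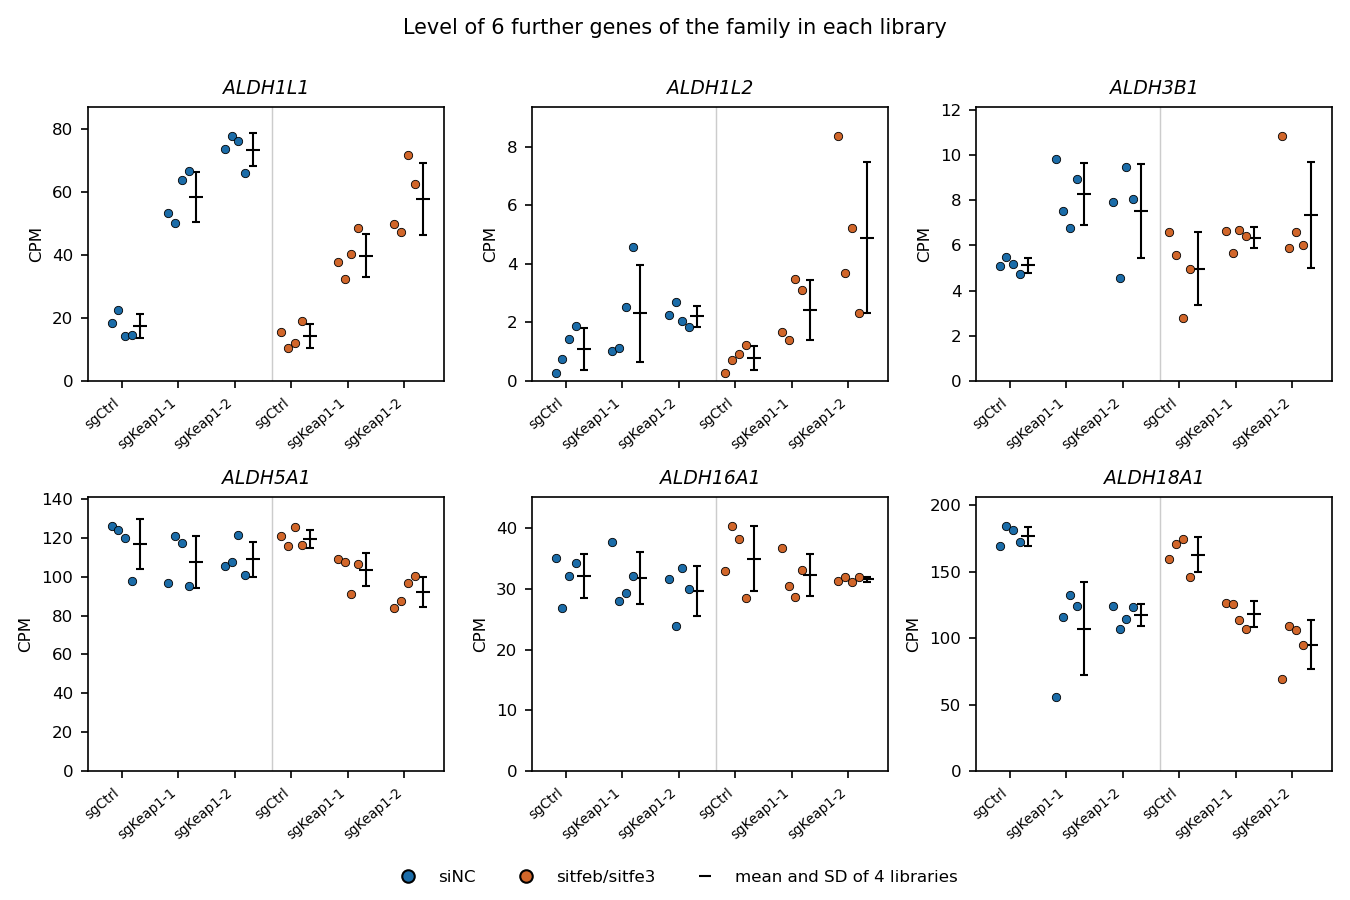
Level (CPM, linear axis from 0) of the 6 further genes of the family in each of 24 libraries, by guide and siRNA, with the mean and SD of the 4 libraries of each group. ALDH1L1 is higher and ALDH18A1 lower in all 16 libraries with a KEAP1 guide than in all 8 sgCtrl libraries. Of all genes, 2.8% are likewise higher and 1.62% lower.

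The enzymes around the family were followed in lists of their pathways. Among 19 tested enzymes that act on aldehydes, ketones and alcohols beside the family, 8 rose and 3 fell with sgKeap1-1 under siNC, and 9 rose and 3 fell with sgKeap1-2, beside 10.9% and 14.7% of all genes in either direction. Under sitfeb/sitfe3, 6 rose and 4 fell with sgKeap1-1 and 7 rose and 4 fell with sgKeap1-2, beside 10.5% and 20.2%. PTGR1 and aldo-keto reductases led those called in all 4 comparisons. PTGR1, a reductase of unsaturated aldehydes and prostaglandins, went from 39.3 ± 23.3 CPM in siNC; sgCtrl to 789 ± 125 CPM with sgKeap1-1 and 1085 ± 82.2 CPM with sgKeap1-2 (SD, n = 4 each). The aldo-keto reductase AKR1B10 rose by 3.62 and 4.29 on the log2 scale under siNC and AKR1C2 by 2.98 and 3.27, although AKR1C genes are near copies of each other and their reads could be split. ADH5, ADH6 and ACSS2, which handle formaldehyde, alcohols and acetate, fell in all 4 comparisons. The median of the list was 0.20 and 0.35 under siNC and -0.02 and -0.05 under sitfeb/sitfe3.

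The amino acid and carnitine pathways that ALDH6A1, ALDH4A1, ALDH7A1 and ALDH9A1 serve were followed in the same way. Of 18 tested genes of branched-chain amino acid breakdown, 0 rose and 1 fell with sgKeap1-1 under siNC, and 0 rose and 2 fell with sgKeap1-2. Under sitfeb/sitfe3, 2 rose and 1 fell with sgKeap1-1 and 1 rose and 2 fell with sgKeap1-2. Over all genes in the same order, 6.01%, 7.58%, 5.69% and 10.6% rose and 4.91%, 7.14%, 4.81% and 9.59% fell. ACADSB, an acyl-CoA dehydrogenase of isoleucine breakdown, fell in all 4 comparisons, by 0.61 and 0.51 on the log2 scale under siNC and by 0.69 and 0.85 under sitfeb/sitfe3. Of 14 tested genes of lysine, proline and carnitine metabolism, 0 rose and 3 fell in each of the 4 comparisons, beside the same shares of all genes. PRODH2, a hydroxyproline dehydrogenase, PIPOX, which oxidises pipecolic acid and sarcosine, and CHDH, a choline dehydrogenase, were called in all 4, with the smallest fall at 0.39 for CHDH. Of all genes tested, 2.66% were called lower in all 4. The calls of PRODH2 and CHDH with sgKeap1-1 under siNC, and of PIPOX with sgKeap1-2 under siNC and with sgKeap1-1 under sitfeb/sitfe3, were lost when any of several single libraries was left out (adjusted p up to 0.119).

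In retinoid metabolism and signalling, to which ALDH1A1 belongs, 2 and 3 of 12 tested genes fell under siNC with sgKeap1-1 and sgKeap1-2, beside 4.91% and 7.14% of all genes, and 3 and 4 under sitfeb/sitfe3, beside 4.81% and 9.59%. RBP4, the plasma retinol carrier, and RDH11, a retinal reductase, fell in all 4 comparisons, with RDH11 at -0.37 and -0.35 under siNC, where leaving out any of several single libraries lost the call (adjusted p up to 0.135). The fatty aldehyde and ether lipid list of 12 tested genes, around ALDH3A2, held 2 that rose in every comparison, CYP4F11 (1.90 and 2.22 under siNC) and CYP4F3 (1.27 and 1.56), both fatty acid omega-hydroxylases. Of the same list, 1 gene fell with each guide under siNC and 2 with each guide under sitfeb/sitfe3, beside shares of all genes from 5.69% to 10.6% for genes that rose and from 4.81% to 9.59% for genes that fell. On knockdown within the backgrounds, 1 gene of these pathway lists passed, in 1 background. It was a gene of branched-chain amino acid breakdown that fell with sgKeap1-2, beside 0.26% of all genes. With the knockdown averaged over the 3 guides, 2 of 19 aldehyde and alcohol enzymes, 1 of 12 retinoid genes and 1 of 18 branched-chain genes fell. Of all genes, 1.39% fell there. In the other 2 lists 0 genes passed in that average.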

How the data were processed

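RNA of 24 libraries (6 groups of 4) was sequenced from the 3′ end with the QuantSeq kit, single-end on a NextSeq 500. The authors deposited raw read counts per gene. The submitters' processing notes name FastQC 0.72, cutadapt 1.16, STAR 2.7.5b, featureCounts 1.6.3, limma 3.40.6 and the build hg38, whereas the study's methods name hg19. The annotation and the strand setting are not given in the sources used here. The labels do not say that replicates were separate cultures, so p-values measure only the spread between these libraries. In the labels each replicate number goes with a date-like prefix shared by all 6 groups, whose meaning is not stated. The main fit was unpaired, and the replicate number entered as a block only in an alternative fit. In a check, 23 of 60 same-numbered pairs had a correlation of deviations from the group means over 0.1 (median 0.0597, against -0.0266 for different numbers), and 15 of 24 libraries correlated best with their own number.

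Of 13446 table entries, 1414 without a gene ID (1.35 to 2.57% of a library's reads) were left out. Filtering by edgeR 4.0.16 (filterByExpr), TMM scaling and limma-voom (limma 3.58.1, R 4.3.3) on 6 group means gave two-sided p-values, adjusted by Benjamini-Hochberg over 11152 genes with a threshold of 0.05. CPM use the TMM-scaled library size. Scripts were tested on simulated data. Library totals ranged from 3527000 to 4600951 reads, and exact intervals on pooled reads cover counting error only. All family genes in the table and the targeted genes were named. From each pathway list, up to 4 genes with a mean of at least 10 counts were named that were called with 1 sign in all 4 comparisons with a KEAP1 guide, by the largest smallest absolute change. ADH5, ADH6 and ACSS2 were named after their values were seen. For family genes whose group means span at least 1 on the log2 scale, the 3 genes most alike were named. Members and lists were chosen with earlier results of these data known. The averaged comparisons, the CCAAT search and the fits without the 2 libraries that stood apart were added after seeing the data. Alternatives were DESeq2 1.42.0, edgeR's quasi-likelihood test, DESeq2 size factors, no filter, a replicate block, quality weights, only the compared groups' libraries, entries without a gene ID kept, and leaving out libraries. The result for 1 gene of the pathway lists is not reported here.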

Additional observations from a re-analysis of the deposited data

Results flagged for a closer look

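Of 60 groups of 4 libraries examined, 2 held a library far from the other 3 by Dixon's criterion, where chance gives about 1 in 20. Both were siNC; sgKeap1-1 replicate 1, a library that stood apart across genes. ALDH2 was at 76.36 CPM there and at 123.9 to 127.6 CPM in the other 3 libraries. Without it the ALDH2 log2 fold change with sgKeap1-1 under siNC was 0.12 (limma adjusted p 0.663) in place of -0.06. ALDH4A1 was at 191.3 CPM in that library and at 150.3 to 154.6 CPM in the others, and without it its log2 fold change was -0.10 (adjusted p 0.601) in place of -0.02.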

How the results depend on the processing

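The 12 called values of the 9 genes in the comparisons with a KEAP1 guide and the averaged knockdown kept their direction and their call in all alternatives run. The number called with sgKeap1-2 under siNC was 2, and 4 with only the compared groups' libraries, with quality weights or without the 2 libraries that stood apart, where ALDH6A1 and ALDH7A1 joined; the cause was not tested. With the replicate block the counts for the 4 comparisons with a KEAP1 guide were 3, 3, 3 and 4, as ALDH7A1 with sgKeap1-2 under siNC and ALDH3A2 with sgKeap1-2 under sitfeb/sitfe3 joined, TFEB passed on knockdown in sgCtrl, the block changed no other call of a named gene, and ALDH1B1 on averaged knockdown was at -0.45 and still called by limma. The counts of called genes in these alternative fits are given without the share of all genes called in the same fit. They therefore do not set the family apart from other genes. Of 2522 values of uncalled results under the alternatives, 203 changed sign. ALDH6A1 with sgKeap1-1 under siNC ranged from -0.83 to -0.53 and ALDH3A1 from 3.32 to 4.72. For 26 other named genes, 98 of 4128 values lost a call, 17 gained one and 0 reversed. The few reads of ALDH3A1 without a KEAP1 guide limit any statement on its change with knockdown.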
